A study of Homo sapiens with 8 samples.

Results

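The non-coding RNA tables of this series hold 623 nuclear features that carry a number in place of a gene symbol and lie close to tRNAs in length. The 55 described here are those of 80 to 83 nt, chosen by length alone out of 2709 features in all, with mitochondrial features left out. In practice 41 of them were 82 nt and 14 were 83 nt long, and none was 80 or 81 nt. Small RNA was sequenced from exosomes (n = 5) and from the parental cells (n = 3) of MEC-1, an established B-cell line from chronic lymphocytic leukaemia. Both groups were the same line with no further treatment named in the labels: the cells were grown in bioreactors in DMEM with 10% fetal calf serum, and exosomes were collected by serial centrifugation with an iodixanol cushion step. The serum was freed of its own exosomes except in the upper medium compartment. The comparison asked which small RNAs exosomes carried relative to their parental cells. For 3 of the 5 exosome samples matched cells were taken, without a label for which. The labels do not name separate cultures behind the libraries of a group, and the spread that the p-values rest on may be technical.

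Transfer RNAs decode messenger RNA codons at the ribosome. RNA polymerase III makes them as precursors, which RNase P and RNase Z trim at the ends before the CCA tail is added and the mature tRNA leaves the nucleus. Most nuclear tRNAs have a short variable loop between the anticodon arm and the T arm. Those for leucine and serine carry a long variable arm there, which makes them longer, and seryl-tRNA synthetase reads that arm of its tRNAs. tRNAs and their fragments are common cargo of extracellular vesicles. The tables pair none of the 55 numbers with a tRNA name, so which of them are leucine or serine genes was not checked, and no sequence is shown because neither the tables nor the reference tables used here give one for these numbers.

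The 55 features lay on 13 chromosomes of GRCh37, 24 of them on chromosome 6, 6 on chromosome 1 and 5 on chromosome 5, with 31 on the plus and 24 on the minus strand. None overlapped another feature of the tables. Around the length limits, the 3 features of 78 nt had no read in any library and the 2 of 84 nt had 5 to 84 reads in exosome and 27 to 94 in cell libraries. The 41 features of 82 nt together had 4460 to 16624 reads in exosome and 3594 to 24471 in cell libraries, and the 14 of 83 nt had 473 to 2234 and 984 to 1995.

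Levels are given in CPM, counts scaled to library size with edgeR's TMM factors, with the SD over the libraries of a group, and calls are those with an adjusted p below 0.05. The factors were 1.21, 1.08, 1.41, 1.46 and 0.524 in exosomes 1 to 5 and 1.42, 0.552 and 0.905 in cells 1 to 3. A low factor raises the CPM of a library against its share of all reads. The order of libraries in CPM can therefore differ from that by library total. In bulk libraries a lower level may be fewer vesicles or cells with an RNA or less of it in each, which cannot be told apart. Libraries held 23353820 to 32436286 counts in exosomes and 25675636 to 57323598 in cells. Most markers differed between the groups. All 7 Y and vault RNAs listed as vesicle markers were called higher in exosomes, taking 10.8% to 17.5% of exosome and 0.835% to 1.69% of cell reads. Of these, 6 had their groups apart and VTRNA1-2 overlapped. Of the 3 nuclear marker RNAs measured, 2 were called lower. RN7SK was apart (a mean of 227 ± 38.9 CPM in exosomes, against 9524 ± 8450 CPM in cells), while SNORD13 overlapped. SNORD3A overlapped and was not called (log2 0.20, 115 ± 51.7 CPM in exosomes, 100 ± 57.5 CPM in cells). Fragments of the large rRNAs took 27.7% to 54.3% of exosome and 6.78% to 14.3% of cell reads. Of 8 miRNAs listed for other tissues, 6 had an entry and 5 of these were called higher in exosomes, together at 0.0102% to 0.0342% of exosome and 0.00216% to 0.00309% of cell reads. Of the listed B-cell miRNAs, MIR155 was not analysed here, and MIR150 had a mean of 24.9 ± 20.9 CPM in exosomes, against 8.33 ± 8.43 CPM in cells, and neither it nor MIR21 was called. Cell 2 stood apart from the other cell libraries. It had 997 CPM of RN7SK, against 9680 in cell 1 and 17894 in cell 3. In CPM it was the highest cell library for 39 of the 44 members tested. Its factor of 0.552 raises these values, and by library total the order changed for some members. For feature 23542, cell 2 had 105 reads of 54461350 and cell 1 had 95 of 25675636. The matching count over all features was not taken. The part of these differences between libraries in the results below was not tested.

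The 55 features took a small share of all reads, and that share overlapped between groups. It was 0.0423%, 0.0452%, 0.0577%, 0.0655% and 0.0181% in exosomes 1 to 5, and 0.0178%, 0.0486% and 0.0165% in cells 1 to 3. Exosome 5 lay at the level of cells 1 and 3, and cell 2 lay among the exosome libraries. The means were 0.0458% ± 0.0181 (SD, n = 5) and 0.0277% ± 0.0182 (SD, n = 3), and an exact permutation test, two-sided, gave p = 0.286 (adjusted p = 0.381 over the 4 shares tested).

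Among the reads of nuclear tRNA-length features alone, the 82 and 83 nt features took a smaller share in every exosome library than in any cell library. That share was 0.266%, 0.188%, 0.341%, 0.255% and 0.215% in exosomes 1 to 5 and 0.552%, 2.41% and 1.01% in cells 1 to 3. The groups did not overlap, and cell 2 was highest. The difference of means was -1.07 percentage points (0.253% ± 0.0583, n = 5, against 1.32% ± 0.969, n = 3; -0.527 points without cell 2). The exact permutation test, two-sided, gave p = 0.0357, the smallest that 56 splits allow, and an adjusted p of 0.0714, which misses 0.05. Most of the other reads in this ratio fell on the features of 68 to 79 nt, which took 8.37% to 25.5% of all reads in exosomes and 1.58% to 3.12% in cells. The rest fell on those of 84 nt or more, at 0.0209% to 0.0681% in exosomes and 0.0467% to 0.109% in cells.

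In every exosome library the leading members took a smaller part of member reads than in any cell library. The 5 most abundant members of each library held 33.9%, 32.3%, 30.2%, 29.5% and 33.8% of member reads in exosomes 1 to 5, and 45.0%, 68.4% and 52.8% in cells 1 to 3. The groups did not overlap (31.9% ± 2.04 against 55.4% ± 11.9, exact permutation p = 0.0357, two-sided, adjusted p = 0.0714). The share of 82 nt features in member reads overlapped between groups at 89.0% ± 2.53 in exosomes and 85.2% ± 6.99 in cells (exact permutation p = 0.393, two-sided, adjusted p = 0.393). The widest 95% Wilson intervals of these single-library shares spanned 0.00208 points for all reads, 0.0574 for tRNA-length reads, 2.88 for the 5 most abundant members and 2.38 for 82 nt, and they cover counting error only.

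**Figure D1:**
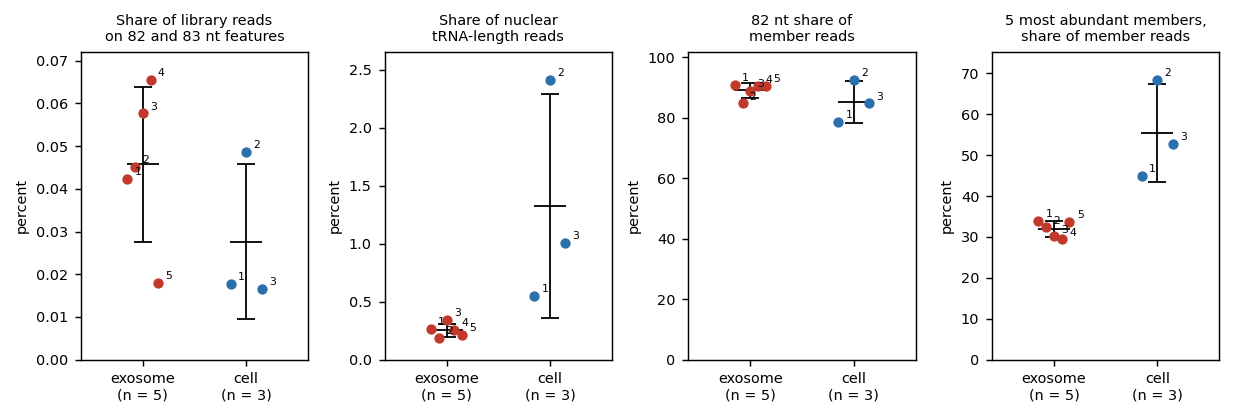
Shares in percent for each exosome (red) and cell (blue) library, numbered by replicate, with mean and SD as bars; the left panel is of all reads, the next of reads on nuclear tRNA-length features, the other two of reads on the 55 members. The groups are apart for the share of tRNA-length reads (0.188% to 0.341% in exosomes, 0.552% to 2.41% in cells) and for the 5 most abundant members, and overlap in the other panels.

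The most abundant member differed between the groups. Feature 7518 (chr14:21093529-21093610, plus strand, 82 nt) led in all 5 exosome libraries, with 28.0, 55.99, 35.1, 40.8 and 25.9 CPM, against 10.2, 80.8 and 15.4 CPM in cells 1 to 3. In CPM, cell 2 lay above every exosome library and cells 1 and 3 below every one (log2 fold change 0.07, SE 0.65, adjusted p = 0.943 by edgeR's quasi-likelihood test). By library total this layout did not hold. There cell 2 (2430 reads of 54461350) lay below exosome 2 (1963 of 32318716), and exosome 5 (371 of 27316077) below cell 1 (370 of 25675636). The log2 value of feature 7518 was 1.47 without cell 2, again not called.

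In cells the leading member was feature 7707 (chr11:66115591-66115672, plus strand, 82 nt) in cells 2 and 3 and feature 7802 (chr16:22207032-22207113, minus strand, 82 nt) in cell 1. Feature 7707 had 23.5, 20.9, 25.2, 21.8 and 25.2 CPM in exosomes 1 to 5, against 13.8, 232.6 and 32.9 CPM in cells 1 to 3. After scaling, the exosome values were close together while the cell values spanned both sides of them. By library total, cell 1 (502 reads of 25675636) lay above exosome 5 (361 of 27316077), and no cell library lay below every exosome library. Feature 7707 was called lower in exosomes (log2 -1.996, SE 0.69, adjusted p = 0.0288), and that call was lost without cell 2, where the log2 value was -0.07 (adjusted p = 0.932). It was also lost without exosome 1 (-1.84, adjusted p = 0.0615), exosome 3 (-1.60, adjusted p = 0.0866) or exosome 4 (-1.55, adjusted p = 0.121), and with total count scaling (-1.17, adjusted p = 0.216). In all, 11 of the 18 alternatives run lost the call, limma-voom among them (log2 -1.02, adjusted p = 0.269). Feature 7707 alone held 26.4% of member reads in cell 2.

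Feature 7802 showed the same layout after scaling, with 26.8, 24.6, 25.7, 30.1 and 20.9 CPM in exosomes 1 to 5 and 17.0, 142.5 and 24.2 CPM in cells 1 to 3 (log2 -1.26, adjusted p = 0.116, not called, and 0.23 without cell 2). Feature 23531 (chr10:69524261-69524342, plus strand) had 7.40, 7.22, 16.1, 11.0004 and 3.57 CPM in exosomes 1 to 5 and 6.04, 75.1 and 7.25 CPM in cells 1 to 3 (log2 -1.70, adjusted p = 0.0749, not called; 0.39 without cell 2). In both, cell 2 was far above every other library and the other cell libraries lay within or below the exosome range.

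Of the 55 members, 44 had enough reads to be tested, and 12 rose, 4 fell and 28 were not called. Over all 1178 features tested, 43.0% were called, 20.7% higher and 22.3% lower in exosomes. Of the tested members 27.3% were called higher and 9.09% lower, and their median log2 fold change was 1.21 against -0.09 for all features. That of the members was 0.51 without cell 1 and 0.78 with near-identical features (within 2% or 5 reads in every library) counted once, and the 5 equal copies on chromosome 1 described below lie at 1.21. Scaling by total counts called 14 higher and 1 lower, upper-quartile scaling 20 and 3, and scaling without the large rRNA features 21 and 2. Under those settings the median of all features was 0.19, 0.25 and 0.29, and that of the members 1.62, 1.53 and 1.56. The features of 68 to 79 nt had 33.5% called higher and 19.4% lower of 325 tested (median 0.47), and those of 84 nt or more 18.8% and 25.0% of 32 (median -0.61).

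**Figure D2:**
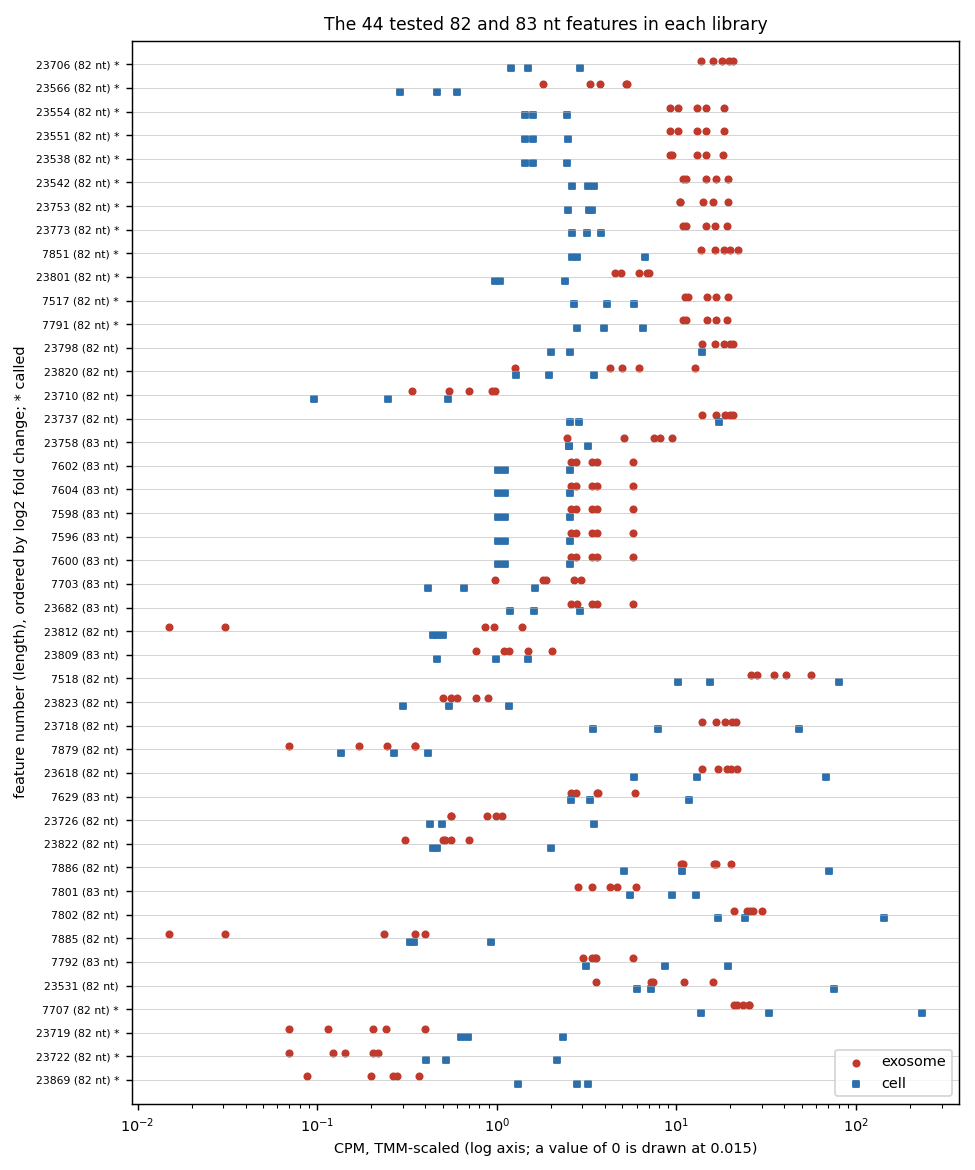
CPM on a log axis for each of the 44 tested members (rows, ordered by log2 fold change) in each exosome library (red circles) and cell library (blue squares); an asterisk marks a call. The 12 members at the top have every exosome library above every cell library, and in the 3 lowest rows every exosome library is below every cell library.

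All 12 members that rose were 82 nt long and had every exosome library above every cell library. Over all features tested, 21.6% had their exosome libraries above in this way and 20.1% below. Of the 44 members 18 were above, 3 below and 23 overlapped. The 18 include the 5 equal copies on chromosome 1, which share the same values and were barely apart (exosome 5 at 2.59 CPM, cell 2 at 2.56 CPM). Feature 23798, not called, was also barely apart (exosome 2 at 13.83 CPM, cell 2 at 13.81 CPM). The near-identical features 23554 and 23551 are among the 18 as well. Copies were not merged in these counts, so the 18 are not independent of each other. The log2 fold changes of the 12 ran from 1.72 to 3.25, and their mean levels from 3.89 to 18.1 CPM in exosomes and from 0.451 to 4.43 CPM in cells.

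The largest rise was in feature 23706 (chr6:27065085-27065166, plus strand). It had 19.7, 13.7, 18.1, 16.1 and 20.8 CPM in exosomes 1 to 5, against 1.21, 2.89 and 1.48 CPM in cells 1 to 3. The lowest exosome library was several times above the highest cell library, and the means differed 9.48-fold (log2 3.25, SE 0.58, adjusted p = 0.000532). Without any single library its log2 value stayed between 2.93 and 3.65.

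Feature 23566 (chr12:56584148-56584229, plus strand), the only member on its chromosome, followed at lower levels. It had 3.28, 3.76, 5.26, 5.31 and 1.82 CPM in exosomes 1 to 5 and 0.466, 0.599 and 0.289 CPM in cells 1 to 3. The groups were apart although the cell values stood for only 15 to 18 reads per library (8.61-fold, log2 3.11, SE 0.68, adjusted p = 0.00195).

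The 5 members on chromosome 5 lay within 90309 nt. Of these, 4 rose. Feature 23554 (chr5:180524474-180524555, minus strand) had 9.21, 14.6, 13.0, 18.4 and 10.2 CPM in exosomes 1 to 5 and 1.59, 1.43 and 2.47 CPM in cells 1 to 3, with no overlap (7.15-fold, log2 2.83, SE 0.56, adjusted p = 0.00103). Features 23551 (chr5:180601044-180601125, minus strand) and 23538 (chr5:180528840-180528921, plus strand) had counts within 10% of it in every library, and whether the 3 share reads was not tested. Without cell 3 the log2 values of 23554, 23551 and 23538 were 3.45, 3.45 and 3.43.

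Feature 23542 (chr5:180614701-180614782, plus strand) rose less, from a higher cell level. It had 10.8, 16.5, 14.6, 19.3 and 11.3 CPM in exosomes 1 to 5 and 2.61, 3.49 and 3.24 CPM in cells 1 to 3 (4.66-fold, log2 2.22, SE 0.53, adjusted p = 0.00323). The remaining member there, 23552 (chr5:180591564-180591645), was too low to be tested, with 14 reads over the exosome libraries, 9 of them in exosome 5, and 0 over the cell libraries. With 3 counts as the floor over the cell libraries this is an at least 4.5-fold higher share of reads in exosomes, and at least 1.99-fold without exosome 5. Both bounds take the few exosome reads as exact, so counting error in these reads could lower them.

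On chromosome 6, 4 of the 18 tested members rose, 2 fell and 12 were not called. Feature 23753 (chr6:28956779-28956860, plus strand) had 10.5, 16.001, 14.0, 19.4 and 10.4 CPM in exosomes 1 to 5 and 2.50, 3.39 and 3.26 CPM in cells 1 to 3, with no overlap (4.61-fold, log2 2.21, SE 0.53, adjusted p = 0.00346). Its neighbour 23773 (chr6:28911399-28911480, minus strand) had a log2 value of 2.18 and 23801 (chr6:28446400-28446481, minus strand) one of 2.01. The other rises were 7851 (chr17:8090184-8090265, log2 2.16), 7517 (chr14:21078291-21078372, log2 1.81) and 7791 (chr16:22308461-22308542, log2 1.72). Leaving out any 1 library kept 9 of the 12 calls, and those of 23801 (1.74), 7517 (1.49) and 7791 (1.40) were lost without cell 1.

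The 4 members that fell were all 82 nt long; their number was 8 without cell 1, 1 without cell 2 and 2 without exosome 3 or exosome 4. The 3 named next were chosen after their values were seen, because few fell. Feature 23869 (chr8:96281885-96281966, minus strand), the only member on its chromosome, had 0.368, 0.200, 0.263, 0.0880 and 0.280 CPM in exosomes 1 to 5 and 2.80, 3.23 and 1.31 CPM in cells 1 to 3. Every exosome library was below every cell library, and the mean was 10.2-fold higher in cells (log2 -3.34, SE 0.71, adjusted p = 0.00159). It was called lower under each of the 18 alternatives run. Its exosome values rest on 3 to 12 reads per library, against 68 to 102 in cells.

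The other two falls lay near each other on chromosome 6, again at few reads in exosomes. Feature 23722 (chr6:27470818-27470899, plus strand) had 1 to 10 reads per exosome library and 19 to 65 per cell library (log2 -2.68, SE 0.85, adjusted p = 0.0181). Feature 23719 (chr6:27446591-27446672, plus strand) had 1 to 13 and 23 to 70 (log2 -2.50, SE 0.82, adjusted p = 0.0215). Their groups did not overlap, and both calls were lost without cell 2, at -1.64 (adjusted p = 0.212) for 23722 and -1.72 (adjusted p = 0.177) for 23719. That of 23719 was also lost without cell 3 (adjusted p = 0.0684), exosome 3 (adjusted p = 0.0674) or exosome 4 (adjusted p = 0.0718), and both were lost with total count scaling. In all, 5 alternatives lost the call of 23722 and 8 that of 23719.

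**Figure D3:**
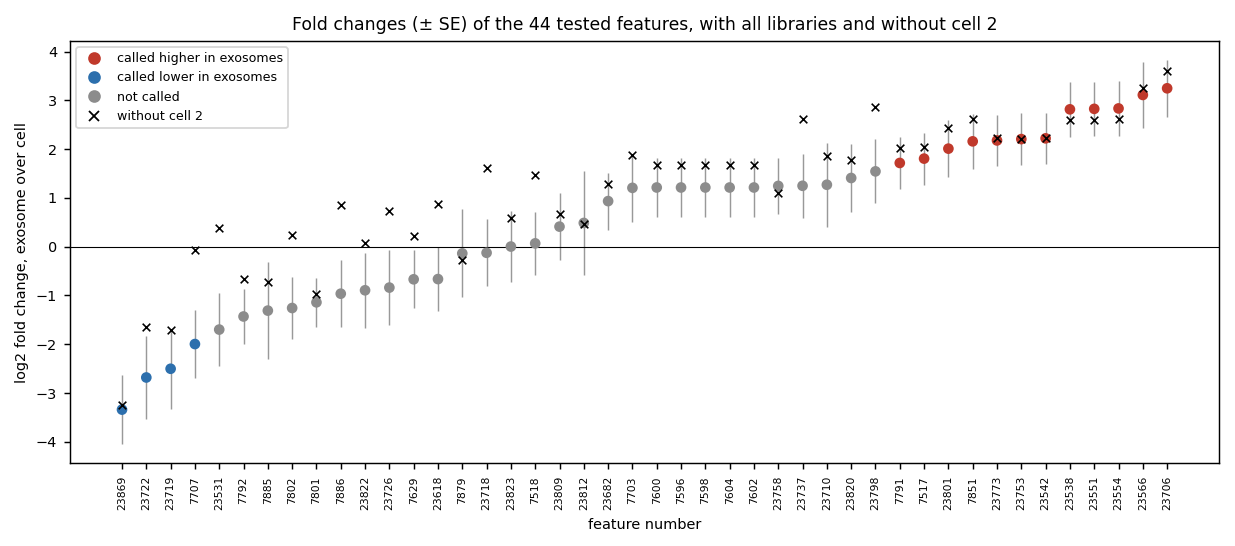
Log2 fold change, exosome over cell, of the 44 tested members with its SE (circles, coloured by call) and the value without cell 2 (crosses). Crosses lie close to the circles for most members that rose and for feature 23869, and well above them for several others, including features 7707, 23531, 23618 and 23718; of these 4, 7707 alone was called with all libraries.

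None of the 12 tested members of 83 nt was called by edgeR's quasi-likelihood test, while 3 had an unadjusted p under 0.05, DESeq2 called 1 and limma-voom 0. Against a median log2 fold change of 0.87 for the 32 tested members of 82 nt, that of these 12 was 1.21. Among the 12 are the 5 members with equal counts described below. The most abundant in exosomes was 23758 (chr6:144537684-144537766, plus strand), with 5.13, 7.47, 9.49, 8.07 and 2.45 CPM in exosomes 1 to 5 and 3.21, 2.53 and 2.52 CPM in cells 1 to 3; it was chosen after its values were seen. Exosome 5 lay below every cell library and the other exosomes above (log2 1.25, SE 0.57, adjusted p = 0.088). The most abundant by the mean over all 8 libraries were a pair on opposite strands of chromosome 16 whose starts lie 529 nt apart. Feature 7792 (chr16:57333863-57333945, plus strand) had 3.01, 5.76, 3.37, 3.52 and 3.57 CPM in exosomes 1 to 5 and 3.13, 19.3 and 8.69 CPM in cells 1 to 3 (log2 -1.43, SE 0.57, adjusted p = 0.0513). Feature 7801 (chr16:57334392-57334474, minus strand) had 2.82, 5.93, 4.65, 3.37 and 4.26 CPM in exosomes 1 to 5 and 9.49, 12.9 and 5.49 CPM in cells 1 to 3 (log2 -1.14, SE 0.50, adjusted p = 0.0758). The groups overlapped in both, through cell 1 in 7792 and through cell 3 in 7801. The value of 7792 passed without cell 1 (-1.92, adjusted p = 0.0178) and without exosome 2 (-1.60, adjusted p = 0.0489).

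A cluster of 5 members of 83 nt lies on the plus strand of chromosome 1 at near-regular steps, with starts at 161411323, 161418741, 161426122, 161433532 and 161440913. All 5 had the same count in every library, 90, 201, 155, 123 and 37 reads in exosomes 1 to 5 and 37, 77 and 58 in cells 1 to 3. Each therefore has the same log2 value of 1.21 (SE 0.60, adjusted p = 0.116), and the 5 give 1 set of values between them. In CPM their exosome libraries (2.59 to 5.73) were all above their cell libraries (1.02 to 2.56), but exosome 5 at 2.59 and cell 2 at 2.56 nearly met. By library total the groups overlapped: the 37 reads were out of 27316077 counts in exosome 5 and out of 25675636 in cell 1.

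Members on different chromosomes also had nearly equal counts in exosomes. With a tolerance of 10% or 5 reads in all 5 exosome libraries, chosen after the values were seen, 21 of 34 members with a mean of at least 30 reads fell into 4 sets of 3 to 7 members. The same tolerance in all 3 cell libraries put 14 of 38 members into 5 sets, although fewer libraries had to match. With 5% in place of 10% the contrast was smaller, with 16 of 34 members in 4 sets in exosomes and 12 of 38 in 4 sets in cells. The exosome sets at 10% are described here without a test, and near-equal counts in exosomes are what chose them. Of the 5 sets chosen in cells, 3 were also near-equal in exosomes (the chromosome 1 cluster, the chromosome 5 trio below, and the pair 23542 and 23773). The other two were pairs, 23682 with 23706 and 23722 with 23822, whose higher count was 2.40 to 8.03 and 2.30 to 8.0 times the lower in exosomes.

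The widest case was a set of 6 features of 82 nt, 23618 (chr15:40886023-40886104), 23718 (chr6:27265775-27265856), 23737 (chr6:28180815-28180896), 23798 (chr6:28565117-28565198), 7851 and 23706. Their counts ran from 642 to 664, 480 to 490, 824 to 868, 548 to 583 and 295 to 316 in exosomes 1 to 5. In cells 1 to 3 they ran from 44 to 211, 87 to 2058 and 77 to 680. The highest of the 6 was 1.02 to 1.07 times the lowest in exosomes, as the choice of the set requires, and 4.80, 23.7 and 8.83 times in cells. Exosome 5 and cell 1 had like totals over all members, 4933 and 4578 reads, while the 6 themselves had fewer reads in cell 1.

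With means of 17.7 to 18.4 CPM in exosomes and 1.86 to 29.1 CPM in cells, their fold changes covered both directions. Feature 23706, the lowest in cells, was at 3.25 on the log2 scale. Feature 23618, the highest in cells, was at -0.66 (18.4 ± 2.97 CPM in exosomes, 29.1 ± 34.3 CPM in cells, adjusted p = 0.441, 0.88 without cell 2). Feature 23718 was at -0.13 (adjusted p = 0.896), and at 1.61 (adjusted p = 0.0353) without cell 2. Of the 6, 2 were called higher and none lower.

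In 2 of the other sets the counts were also farther apart in cells than in exosomes. The 7 features of 83 nt comprised the chromosome 1 cluster, 7629 (chr1:161500132-161500214, minus strand) and 23682 (chr6:26521436-26521518, plus strand). Their highest count was 1.00 to 1.07 times the lowest in exosomes and 3.24, 4.61 and 2.31 times in cells 1 to 3, with 7629 the highest in each cell library. A set of 5 features of 82 nt on 4 chromosomes (23542, 23753, 23773, 7517 and 7791), all called higher, had ratios of 1.01 to 1.11 in exosomes and 1.12, 1.93 and 1.29 in cells. The set of 3 features on chromosome 5 (23538, 23551 and 23554) had ratios of 1.00 to 1.07 in exosomes and 1.00 to 1.02 in cells, so its counts were near-equal in both groups.

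**Figure D4:**
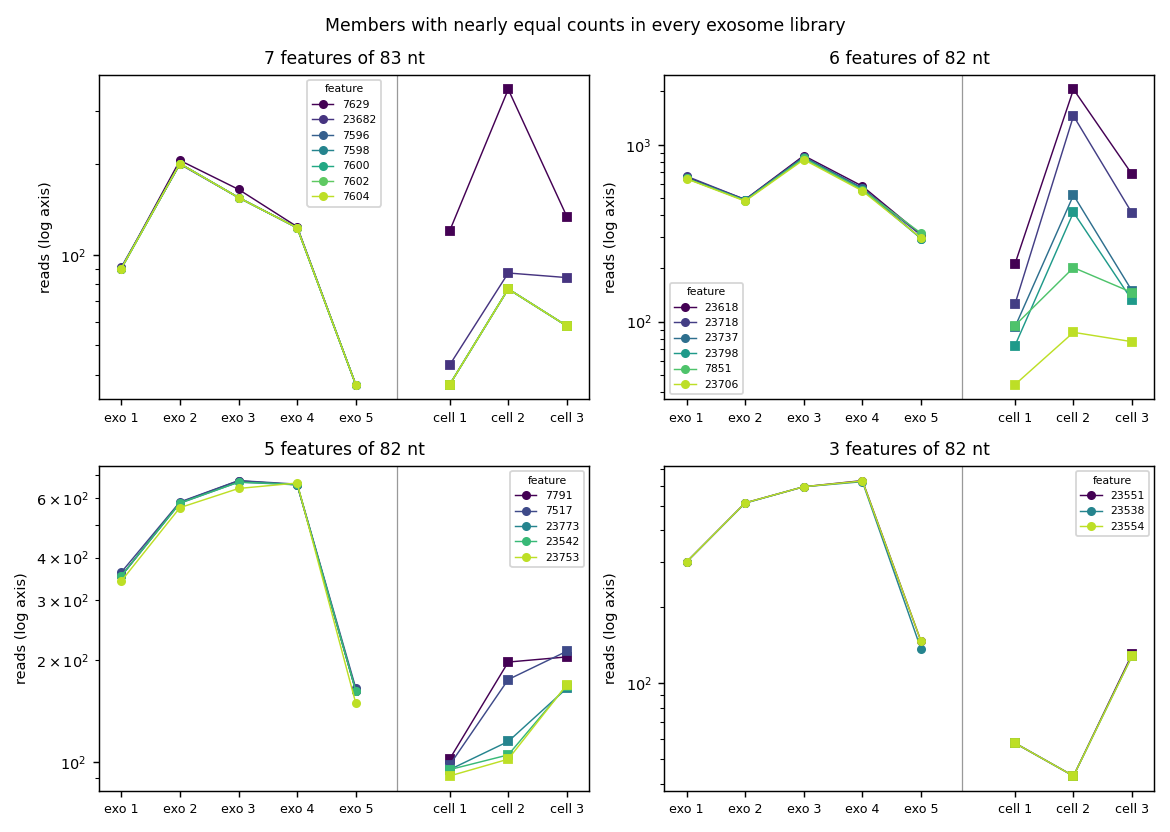
Reads (log axis) of each member of the 4 sets in exosome libraries 1 to 5 (circles) and cell libraries 1 to 3 (squares); lines join the values of 1 member. In the set of 6 features the lines lie on top of each other in exosomes, with 295 to 316 reads in exosome 5, and fan out in cells, with 87 to 2058 reads in cell 2.

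Entry to these sets needed a mean of at least 30 reads in the exosome libraries, which members that rose pass more easily. Of the 34 members with that mean 21 were in the sets, and of the 12 that rose 10 were. How reads that map to several places were counted is not given in the sources used here, and whether these members share reads was not tested, so their fold changes are uncertain as measures of single genes. Counting near-identical features once left 11 members higher and 3 lower of 38 tested.

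Of the 11 members too low to test, features 7531 (chromosome 14) and 7709 (chromosome 11) had no read in any library. Feature 23756 (chr6:69914378-69914460, plus strand) had 20 reads over the exosome libraries and 0 over the cell libraries, an at least 6.44-fold higher share of reads in exosomes with 3 counts as the floor. Exosome 5 held 11 of these reads and exosome 4 none, and without exosome 5 the bound was at least 3.58-fold. These bounds also take the exosome reads as exact and leave out their counting error. Features 23830, 23721 and 23680 had 11, 26 and 19 reads over the exosome libraries and 51, 81 and 61 over the cell libraries. The remaining 5, 23552 included, had 2 to 44 reads over the exosome and 0 to 34 over the cell libraries.

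Mitochondria encode their own leucine and serine tRNAs, which lack the long variable arm. Of the 4 genes none was called by edgeR's quasi-likelihood test (1 at an unadjusted p under 0.05, 1 called by DESeq2 and 0 by limma-voom). MT-TL1, for leucine, had 139 ± 136 CPM in exosomes, against 39.2 ± 29.2 CPM in cells (log2 1.82, adjusted p = 0.0694), and MT-TS2, for serine, had 387 ± 234 CPM in exosomes, against 485 ± 381 CPM in cells (log2 -0.32, adjusted p = 0.724). MT-TL2 was at 1.21 and MT-TS1 at 1.42 on the log2 scale. All 4 overlapped between groups. Of the 18 other mitochondrial tRNAs, 4 rose (MT-TQ, MT-TA, MT-TE and MT-TT) and none fell.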

How the data were processed

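For each of 5 exosome and 3 cell libraries the authors deposited whole-number counts without normalization, in featureCounts layout per the file headers. GRCh37, STAR, cutadapt 1.1, featureCounts and DESeq2 1.8.2 come from the submitters' processing notes, with no mapping settings; per the labels' protocols, RNA under 200 nt was ligated to adapters and amplified for 15 cycles. Counts of all 2709 features were compared with edgeR 4.0.16 (R 4.3.3): quasi-likelihood test, TMM factors, the default low-count filter and Benjamini-Hochberg adjustment over 1178 features, called at an adjusted p under 0.05. The SE of a log2 fold change is its size over the square root of F. Shares were compared with exact permutation tests (scipy 1.17.1), adjusted over 4 measures. Alternatives used DESeq2 1.42.0, limma 3.58.1, other scalings and filters, and left-out libraries.

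Members and lists were chosen with earlier results of these data known. Named members are the 5 highest by mean CPM in each group, up to 6 of the largest changes each way among calls with a mean of at least 100 counts and groups apart, and the 2 most abundant of each length, a near-identical group counting once; no fall met this rule. The tables give a location and length, and no name, for each numbered feature. The listed RPPH1, RMRP, MIR145, MIR451A and MIR155 were not analysed here. Libraries had no molecular identifiers.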

Additional observations from a re-analysis of the deposited data

Results flagged for a closer look

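In exosome 2, feature 7792 had 5.76 CPM, against 3.01 to 3.57 CPM in the other exosome libraries and 3.13 to 19.3 CPM in cells. Its gap to the next library was 0.797 of the range of the exosome group, above Dixon's value of 0.71 for 5 libraries. Of 21 sets of exosome values checked this was the 1 that passed, and chance alone passes about 1 in 20.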

How the results depend on the processing

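The count of members called higher (12) was 21 with a filter of at least 50 counts in 3 libraries, 20 with upper-quartile scaling and 21 without the large rRNA features, and 9 to 15 with 1 library left out. The count called lower (4) was 1 with that filter, 1 with total count scaling, 2 with limma-voom, without a low-count filter and without the large rRNA features, and 1 to 8 with 1 library left out: 8 without cell 1, 1 without cell 2, and 2 without exosome 3 or exosome 4. All 12 higher calls were kept under each alternative except without cell 1 and where near-identical features were counted once, which drops 23554 by construction. The log2 value of feature 23718 was -0.69 to 1.61 with 1 library left out, 1.61 being without cell 2; the cause was not tested. Each of the 4 shares kept its direction under every alternative, and designs with a library left out could not pass 0.05 (smallest p 0.0952 without a cell and 0.0571 without an exosome library in exact permutation tests); the tRNA-length difference was -2.23 points with near-identical features counted once, and the all-reads difference 0.0509 without the large rRNA features in the total; with 1 library left out the difference was 0.0125 to 0.0286 points for all reads, -1.46 to -0.527 for tRNA-length reads, 0.423 to 7.40 for 82 nt and -28.7 to -17.0 for the 5 most abundant members. Exosome and cell libraries 1 to 3 share replicate numbers; same-numbered deviations correlated at 0.102, -0.0425 and 0.0875, and the replicate block called 12 members higher and 1 lower, against 12 and 2 for those 6 libraries without the block, a comparison chosen after seeing the data. In the block the tRNA-length difference was -1.06 points (exact permutation p = 0.25, the smallest that 3 pairs allow). Counts of 1 to 13 reads limit the exosome values of the members that fell, apart from 7707.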

Other observations

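The share of member pairs with nearly equal counts, both with at least 30 reads and within 10% of each other, was taken per library after the sets had been seen. It was 13.2%, 14.8%, 10.7%, 16.3% and 18.6% in exosomes 1 to 5, and 11.4%, 7.09% and 6.77% in cells 1 to 3. Cell 1 lay above exosome 3, so the groups overlapped. Within 5% it was 10.9%, 12.2%, 7.26%, 11.6% and 12.2% in exosomes 1 to 5 and 8.71%, 3.95% and 5.53% in cells 1 to 3.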
